A study of Rattus norvegicus with 8 samples.

Results

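The 4 arrays at 24 h of a rat culture series were compared by the replicate number in their titles, replicate 1 against replicate 2, with treatment kept as a factor. They are 4 of the 8 arrays of the series. Each replicate was represented by 1 untreated array and 1 array of a culture given human FGF9 at 100 ng/ml, so each side of the comparison had n = 2. The cultures were myelinating cultures made from spinal cord of Sprague-Dawley embryos at E15.5, with the meninges removed before the tissue was dissociated, and all of them shared this origin. The same design, untreated or given FGF9, was repeated at 10 days, again with 2 replicates. Total RNA was hybridised to Affymetrix Rat Gene 1.0 ST arrays, which read transcripts through short probes. The source label names neurosphere-derived astrocytes, whereas the titles and the cell type label name myelinating cultures.

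Myelin is the lipid-rich sheath that oligodendrocytes wrap around axons in the central nervous system. Its making turns on a set of genes for structural myelin proteins, for the enzymes of its galactolipids and cholesterol, and for adhesion molecules that meet the axon at the node of Ranvier. In spinal cord cultures, oligodendrocyte precursors divide, leave the cell cycle and then switch these genes on while they contact axons, so transcripts of mature oligodendrocytes, precursors, neurons and dividing cells are read side by side in one RNA sample.

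The genes with the largest differences in either direction are shown with their promoters, because they mark both sides of the comparison. The windows are the 250 bases before the annotated start in RefSeq for GRCr8, each written 5′ to 3′ on the gene's own strand. They are the promoters of Mal (chr3:135341424-135341673, minus strand) and Klk6 (chr1:103415266-103415515, plus strand), which were higher in replicate 1. They are followed by those of Tspan8 (chr7:53330937-53331186, plus strand) and Slc13a4 (chr4:64955987-64956236, minus strand), which were lower. Capitals mark matches on either strand to short motifs. They are CTGGCAC for MYRF, the master regulator of myelin genes. The motif of SOX factors was searched as ACAAAG. Forkhead factors were represented by TGTTTAC. No match overlaps another in these windows.
Mal: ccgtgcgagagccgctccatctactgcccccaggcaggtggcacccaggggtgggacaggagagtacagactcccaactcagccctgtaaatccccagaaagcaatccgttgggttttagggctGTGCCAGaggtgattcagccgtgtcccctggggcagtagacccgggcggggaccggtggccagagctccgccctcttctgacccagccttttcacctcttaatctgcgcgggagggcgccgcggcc
Klk6: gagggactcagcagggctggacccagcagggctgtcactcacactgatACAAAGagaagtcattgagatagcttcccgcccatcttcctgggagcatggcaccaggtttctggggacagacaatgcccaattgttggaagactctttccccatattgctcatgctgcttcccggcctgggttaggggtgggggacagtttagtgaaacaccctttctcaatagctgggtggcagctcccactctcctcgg
Tspan8: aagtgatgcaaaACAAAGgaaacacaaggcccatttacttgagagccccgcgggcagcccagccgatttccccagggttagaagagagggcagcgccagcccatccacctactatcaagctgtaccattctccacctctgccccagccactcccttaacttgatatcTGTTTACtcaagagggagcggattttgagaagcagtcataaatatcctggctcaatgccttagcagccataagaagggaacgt
Slc13a4: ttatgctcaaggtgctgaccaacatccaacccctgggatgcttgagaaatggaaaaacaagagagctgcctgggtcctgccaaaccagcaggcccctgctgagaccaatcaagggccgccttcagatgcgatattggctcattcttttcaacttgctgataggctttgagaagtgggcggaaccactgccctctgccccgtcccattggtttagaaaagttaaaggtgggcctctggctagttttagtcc

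The Mal window held 1 match to the MYRF motif, the Klk6 window 1 match to the SOX motif, and the Tspan8 window 1 match each to the SOX and the forkhead motif. The MYRF motif was found in 3.69% of all 27457 promoter windows of this length, the SOX motif in 16.0% and the forkhead motif in 3.25%. Among promoters of genes higher in replicate 1 the MYRF share was 5.28% (42 of 796), against 4.04% of the 11968 promoters of tested genes and 3.66% (41 of 1121) of those lower. The other motifs had smaller shares among the higher genes than among tested genes, 12.3% against 13.6% for SOX and 1.63% against 2.57% for forkhead. Their shares among the lower genes, 12.1% for SOX and 2.05% for forkhead, were also below those of tested genes. These letters are descriptions of the windows and no binding was measured.

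The deposited values are on a log2 scale, so a difference of 1 unit is a doubling. Values for 14506 named genes were tested. The array medians lay between 6.62 and 6.73, the upper quartiles between 8.65 and 8.82, and the correlation across features between the control and FGF9 arrays of a replicate was 0.989 for replicate 1 and 0.984 for replicate 2. Between replicates at 24 h it was 0.966 to 0.976. The description labels start with CL1 for replicate 1 at 24 h, with CL2 for replicate 2 at 24 h and for replicate 1 at 10 days, and with AA1 for replicate 2 at 10 days. They do not say what this prefix marks. Prefix and replicate coincide at 24 h, so a difference between cultures and one between array batches cannot be told apart here. Whether the replicates came from separate cultures is not stated in the labels. A p-value here therefore speaks of these arrays alone. It sets the difference against how far the control and FGF9 arrays disagree on it, a spread moderated across genes. That spread may be technical, and an FGF9 effect that differs between the replicates also falls into it. Markers of the labelled culture were read on the 24 h arrays: the myelin gene Mbp had values of 10.78 to 12.67, the neuronal gene Snap25 11.76 to 12.91 and the astrocyte gene Gfap 11.24 to 12.99.

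Replicate 1 differed from replicate 2 at 24 h in 2406 genes (16.6% of those tested; limma, Benjamini-Hochberg adjusted p under 0.05). Of these, 975 were higher in replicate 1 (6.72%) and 1431 were lower (9.86%). A gene can pass only where control and FGF9 arrays give the same sign, since their disagreement is the residual of this fit. The difference was at least 1 log2 unit for 297 of the higher and 400 of the lower genes, and at least 2 units for 31 and 59. With all 8 arrays in the fit 478 of the 14506 genes were higher and 795 lower, the background for list counts from that fit. After subtraction of each array's median, which moved the median of all genes by 0.11, 1133 genes were higher and 827 lower. The count depends on an estimate of the spread with 1 residual degree of freedom. When either 24 h control array was left out of a fit to all 8 arrays, 22 genes were called, and without either 24 h FGF9 array 36 were. Either replicate's array left out gave the same values, since the other treatment's pair alone then set the 24 h difference. These are therefore 2 distinct fits. Mal, Klk6, Fabp4, Gpr37, Tspan8, Slc22a8, Igfbp6 and Ptgds were among the genes called in both.

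In the control arrays 949 genes differed by at least 1 log2 unit between the replicates. In the FGF9 arrays 467 of them differed by at least 1 unit in the same direction, and 29 had the opposite sign. No gene differed by at least 1 unit in opposite directions. Across the 14506 genes the difference in controls and that in FGF9 arrays had a Pearson correlation of 0.757, given as a description, since genes are not independent. The replicate difference was also wider than the FGF9 difference in the same arrays: its median size was 0.212 against 0.155 log2 units, and 712 genes exceeded 1 unit against 214.

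**Figure D1:**
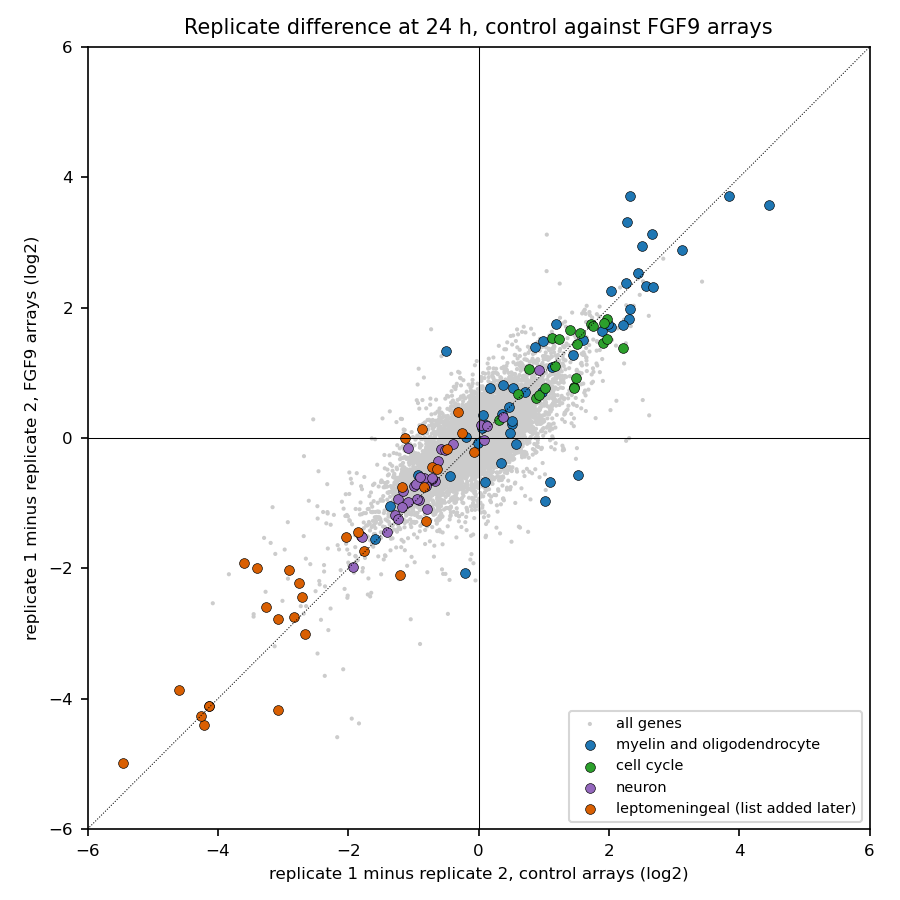
Each point is a gene, plotted by replicate 1 minus replicate 2 at 24 h in the control arrays (x axis, log2 units) and in the FGF9 arrays (y axis, log2 units), with listed genes coloured; the dotted line marks equal differences. Myelin and oligodendrocyte genes with the largest positive differences lie at the upper right, where Mal reached 4.46 in controls and 3.58 in FGF9 arrays. Leptomeningeal genes lie at the lower left, with Ptgds, also in the mature oligodendrocyte list, at -4.14 in controls and -4.11 in FGF9 arrays.

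Transcripts of compact myelin and the node of Ranvier were higher in replicate 1. Of 17 measured members of this list, 12 were higher and 1 was lower, with a median difference of 1.13 log2 units against -0.003 over all genes. The direction held in both treatments, with a median of 0.995 in controls and 1.28 in FGF9 arrays. The list's mean value was 10.93 and 10.50 in the control and FGF9 arrays of replicate 1, and 9.64 and 9.28 in those of replicate 2. In RNA from whole cultures, fewer oligodendrocytes and less myelin RNA per oligodendrocyte cannot be told apart.

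Mal, a proteolipid of compact myelin, had the largest positive difference of all named genes. Its values were 11.80 in the control and 10.62 in the FGF9 array of replicate 1, and 7.34 and 7.04 in replicate 2. The replicates did not overlap and differed by 4.02 ± 0.22 log2 units (SE, n = 2 arrays each; limma adjusted p = 0.000846), a 16.2-fold difference. Mobp, a basic protein of the major dense line, had values of 11.86 and 11.25 in replicate 1 against 9.58 and 7.93 in replicate 2, a difference of 2.79 ± 0.24 (adjusted p = 0.00246). The Mobp call was lost without the treatment factor (limma adjusted p = 0.079). Mog, a glycoprotein of the outermost lamella, had 11.52 and 11.20 against 9.01 and 8.25, a difference of 2.73 ± 0.15 (adjusted p = 0.000874). In each of these genes the control array was the higher one within both replicates, but the gap between replicates exceeded the gap between treatments.

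Other structural genes differed less on this scale. Mbp, whose protein compacts the cytoplasmic faces of the sheath, had values of 12.67 and 12.29 in replicate 1 and 11.06 and 10.78 in replicate 2. On the brighter of its 2 features it differed by 1.56 ± 0.13 (adjusted p = 0.00201), or 2.94-fold, without overlap. The mean over both features gave a smaller difference, 1.07 (limma adjusted p = 0.00521). Without either 24 h control array the Mbp difference was 1.51 (adjusted p = 0.128), and without either FGF9 array 1.61 (adjusted p = 0.0771). Mag, which binds the axon from the innermost myelin layer, had 12.20 and 11.78 against 10.18 and 9.51 and differed by 2.14 ± 0.13. Cnp, an enzyme of the cytoplasmic channels of myelin, differed by 1.13 ± 0.16 and Cldn11, which forms the tight junctions between lamellae, by 0.59 ± 0.15 (adjusted p = 0.0496).

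The other higher members were the proteolipid gene Pllp (1.87), the gap junction gene Gjb1 (1.36), the node and paranode adhesion gene Nfasc (1.24), the tetraspanin gene Tspan2 (0.70) and the junctional adhesion gene Jam3 (0.65). Cntn2, an adhesion molecule of the juxtaparanode that neurons also make, was the lower member at -0.51 ± 0.13 (adjusted p = 0.0439), a call that was lost with all 8 arrays in the fit (adjusted p = 0.0737). So were those of Cldn11 (adjusted p = 0.237) and Tspan2 (adjusted p = 0.0672), which left 10 members higher. The members below the threshold were Cd9 (0.36), Pmp22 (0.28), Cd82 (0.24) and Opalin (0.20, adjusted p = 0.753). Opalin had 7.92 and 6.31 in replicate 1 and 6.83 and 6.99 in replicate 2, so its difference was 1.09 in controls and -0.68 in FGF9 arrays.

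**Figure D2:**
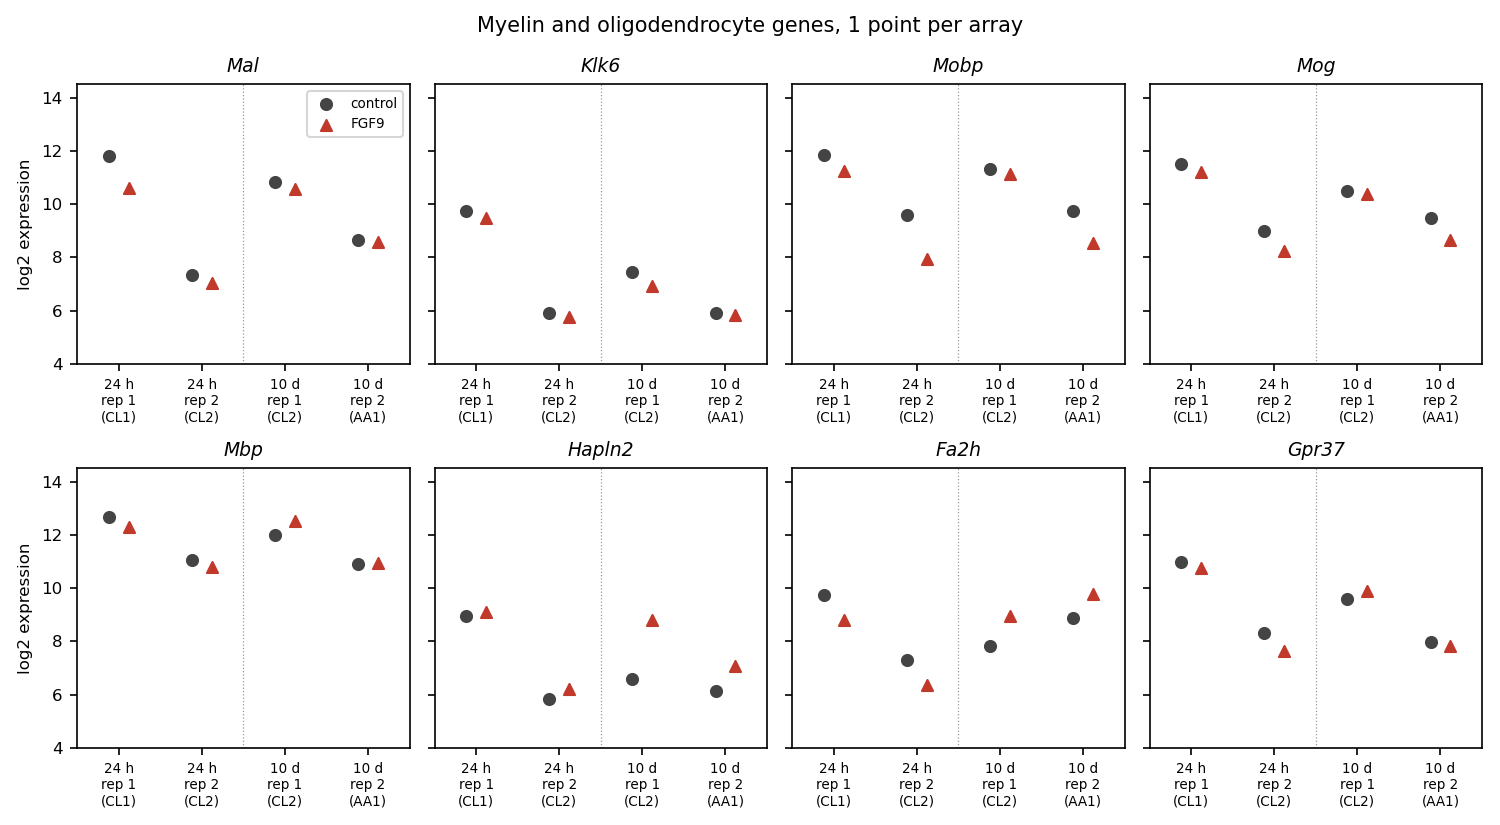
Log2 expression (y axis) of 8 myelin and oligodendrocyte genes in each of the 8 arrays, grouped by time, replicate and array name prefix (x axis), with 1 point per array, grey circles for controls and red triangles for FGF9. In all 8 genes both replicate 1 arrays at 24 h lie above both replicate 2 arrays, from 9.49 and 9.75 against 5.77 and 5.91 for Klk6 to 12.29 and 12.67 against 10.78 and 11.06 for Mbp.

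Among 36 measured genes of mature oligodendrocytes, 17 were higher in replicate 1 and 4 lower, with a median of 0.47 log2 units. Gjb1 is counted in this list and in the compact myelin list. The median was 0.997 in control arrays and 0.741 in FGF9 arrays. Klk6, a serine protease of mature oligodendrocytes, had 9.75 and 9.49 in replicate 1 against 5.91 and 5.77 in replicate 2, a difference of 3.78 ± 0.13 (adjusted p = 0.000235) or 13.7-fold. The values of each replicate lay within 0.26 units of each other. Those of replicate 2 lay below the array medians, not far above the lower quartiles of 5.42 and 5.48, so the size of the fold is uncertain. Hapln2, a link protein of the nodal matrix, had 8.95 and 9.11 against 5.82 and 6.22 and differed by 3.01 ± 0.13 (adjusted p = 0.000742). Gpr37, a receptor that restrains oligodendrocyte differentiation, had 11.00 and 10.76 against 8.33 and 7.63 and differed by 2.90 ± 0.16 (adjusted p = 0.000846).

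Car14, a membrane-bound carbonic anhydrase, had 10.36 and 9.68 in replicate 1 and 8.04 and 5.96 in replicate 2, a difference of 3.02 ± 0.31 (adjusted p = 0.0034). Its call was lost without the treatment factor (limma adjusted p = 0.0982). S1pr5, the sphingosine-1-phosphate receptor of this lineage, differed by 2.49 ± 0.13, and Ermn, a cytoskeletal protein of the myelin sheath, by 2.50 ± 0.14. The phosphatase inhibitor gene Ppp1r14a differed by 2.32, the transcription factor gene Nkx6-2 by 2.15, Nipal4 by 2.07, Plekhh1 by 1.98, Evi2a by 1.87, the matrix protease gene Adamts4 by 1.76 and Enpp2, which encodes autotaxin, by 1.47. In replicate 2 the values of S1pr5, Ppp1r14a, Nkx6-2 and Nipal4 ran from 5.44 to 5.95. They lay near the lower quartiles of those arrays (5.42 and 5.48), so the sizes of these folds are uncertain. Each gene in this paragraph was past the threshold in the fit with treatment as a factor, with adjusted p from 0.000807 to 0.00465. Thus 10 of the 15 genes with the largest positive differences belonged to the compact myelin or the mature oligodendrocyte list; both lists were drawn up with earlier results of these data known.

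The 4 lower members of the mature oligodendrocyte list were Ptgds (-4.13), Serpinb1a (-1.57), Mal2 (-1.20) and Grm3 (-0.75). Ptgds, prostaglandin D synthase, is also a leptomeningeal gene and Grm3, a glutamate receptor, is also made outside this lineage. The members near 0 included Car2 (-0.02) and Fth1 (0.11). Cryab, a small heat shock protein, differed by 1.02 in controls and by -0.96 in FGF9 arrays, and Apod, a lipid carrier, by 1.52 and -0.56. Aspa, which breaks down N-acetylaspartate, had 10.61 and 10.55 in replicate 1 and 11.11 and 9.21 in replicate 2, so its difference was -0.49 in controls and 1.34 in FGF9 arrays.

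Among enzymes of myelin lipids, those of galactolipids had the largest positive differences. Of 20 measured galactolipid and fatty acid genes, 7 were higher in replicate 1 and 1 lower, with a median of 0.16, or 0.27 after subtraction of array medians. With all 8 arrays in the fit 4 were higher and none lower: Cers2, Gatm, Asah1 and Plin3 were not called. Fa2h, which makes the 2-hydroxy fatty acids of myelin galactolipids, had 9.75 and 8.79 in replicate 1 and 7.30 and 6.34 in replicate 2 and differed by 2.44 ± 0.12 (adjusted p = 0.000807). Ugt8, which makes galactosylceramide, had 12.37 and 12.18 against 10.72 and 10.40 and differed by 1.72 ± 0.13 (adjusted p = 0.00164). Galc, which breaks galactosylceramide down, differed by 1.21, the very-long-chain ceramide synthase gene Cers2 by 0.94, and the creatine synthesis genes Gamt and Gatm by 0.85 and 0.51. Asah1, the lysosomal ceramidase, differed by 0.51 and was the last of the 7. The lower member was the lipid droplet gene Plin3 (-0.67).

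The general fatty acid genes did not pass the threshold: Scd differed by -0.85 (adjusted p = 0.0859), Elovl6 by -0.43, Fads3 by -0.35, Elovl5 by -0.29, Fasn by -0.02, Scd2 by 0.05 and Fads2 by 0.08. The cholesterol synthesis genes had the opposite sign to the myelin proteins. All 20 measured had a difference below 0, and 9 of them were past the threshold, with a median of -0.42. Mvd, of the mevalonate pathway, had 7.86 in both replicate 1 arrays and 8.89 and 9.23 in replicate 2 and differed by -1.20 ± 0.14 (adjusted p = 0.0051). Fdft1, the squalene synthase, had 10.09 and 10.23 against 11.09 and 11.19. With all 8 arrays in the fit 3 of the 20 were called lower.

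Precursor and early oligodendrocyte genes had smaller median differences than compact myelin genes. Of 17 measured precursor markers 2 were higher and 3 lower, with a median of 0.11. The largest difference was that of Rlbp1, with 7.05 and 7.15 in replicate 1 and 8.55 and 8.59 in replicate 2 (-1.47, limma adjusted p = 0.00221). The higher members were C1ql1 (0.73) and Olig1. Pdgfra, the growth factor receptor of precursors, had 10.16 and 10.47 in replicate 1 and 10.71 and 10.90 in replicate 2, a difference of -0.49 ± 0.13 (adjusted p = 0.0496). Cspg4, the NG2 proteoglycan, had 6.70 and 6.79 against 6.96 and 6.78 (-0.12, adjusted p = 0.587), and Olig1 had 11.71 and 11.88 against 11.10 and 11.42 (0.53, adjusted p = 0.0391). With all 8 arrays in the fit no precursor marker was called higher and 1, Tnr, was called lower.

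Of 15 measured genes of newly forming oligodendrocytes 1 was higher, the deacetylase gene Sirt2 (0.57, adjusted p = 0.0293), and none was lower. That call was lost with all 8 arrays in the fit (adjusted p = 0.0507). Enpp6, an enzyme of newly formed oligodendrocytes, differed by -0.23, Bcas1 by 0.47, Gpr17 by -0.44 and Sox10, a transcription factor of the whole lineage, by 0.57 (adjusted p = 0.0535). Myrf, Olig2 and Nkx2-2 were not analysed here. Of 24 measured inhibitors of oligodendrocyte differentiation 5 were higher and 2 lower. Gpr37 had the largest positive difference in this list, followed by Hey2 (1.17) and Notch1 (1.14), both of the Notch pathway, and Bmp7, a bone morphogenetic protein, was lower by 1.92 log2 units (-1.92 ± 0.13, adjusted p = 0.0013). Bmp7 and Hey2 were not called with all 8 arrays in the fit (adjusted p = 0.131 and 0.179).

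**Figure D3:**
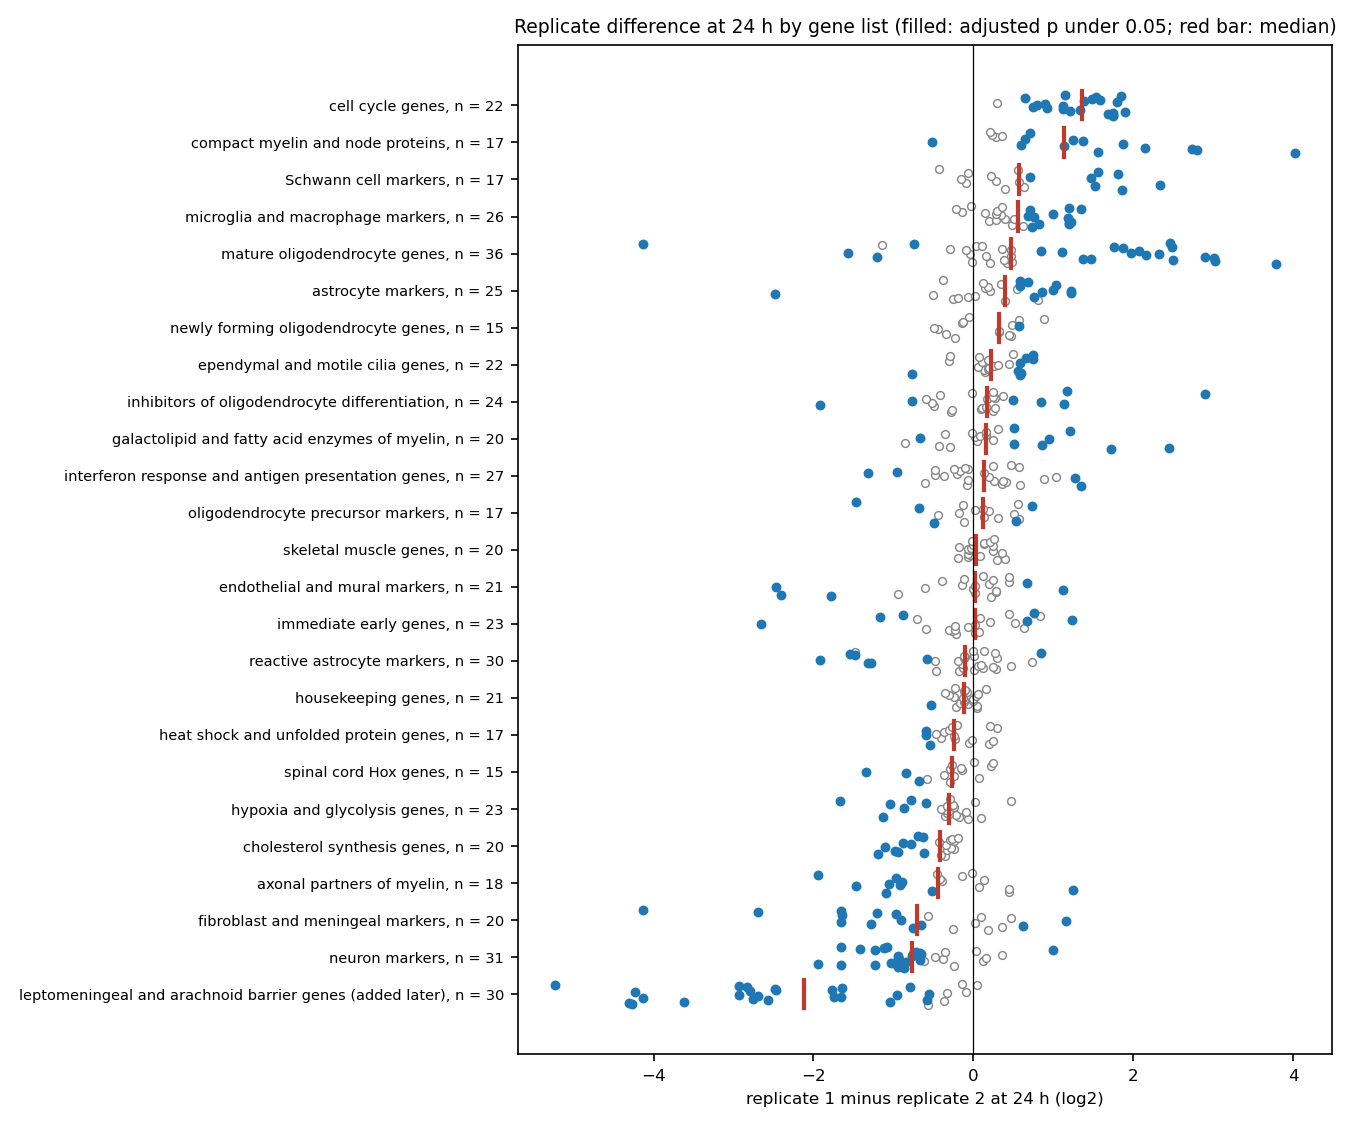
Replicate 1 minus replicate 2 at 24 h (x axis, log2 units) for each measured member of the gene lists (y axis, with the number measured), filled where the adjusted p was under 0.05; red bars are list medians. Cell cycle genes (median 1.35) and compact myelin genes (median 1.13) lie to the right, neuron markers (median -0.77) and leptomeningeal genes (median -2.12) to the left.

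Cell cycle genes were higher in replicate 1 together with the myelin genes. Of 22 measured, 21 were higher and none lower, with a median of 1.35 log2 units. Ccna2, the cyclin of S phase and mitotic entry, had 8.96 and 10.38 in the control and FGF9 arrays of replicate 1 and 6.99 and 8.56 in replicate 2. It differed by 1.89 ± 0.13 (adjusted p = 0.0013), and its FGF9 array was the higher one in both replicates. Plk1, a mitotic kinase, differed by 1.84, Ccnb2 by 1.74 and Cdk1, the mitotic cyclin-dependent kinase, by 1.74. The remaining gene, Tyms, differed by 0.30 (adjusted p = 0.161). With all 8 arrays in the fit 15 of the 22 were called, and Cdk1 was not (adjusted p = 0.0583). Cdca3, a cell cycle gene among the 15 largest positive differences, had 8.81 and 10.13 against 6.17 and 7.82 (2.47 ± 0.14, adjusted p = 0.000943).

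Neuron markers were lower in replicate 1. Of 31 measured, 21 were lower and 1, Reln (0.99), was higher, with a median of -0.77. Nefh, the heavy neurofilament chain of large axons, had 7.48 and 7.35 in replicate 1 against 9.40 and 9.32 in replicate 2 and differed by -1.95 ± 0.12 (adjusted p = 0.00123). Thy1, a surface glycoprotein of neurons and fibroblasts, and Nefm, the medium neurofilament chain, each differed by -1.65, and the noncoding RNA gene Meg3 by -1.42. The synaptic gene Snap25 had 11.83 and 11.76 against 12.91 and 12.74 (-1.03, adjusted p = 0.00559). With all 8 arrays in the fit 20 of the 31 were called lower and Reln was not called.

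Axonal genes that face the sheath were lower in replicate 1 where called, with 1 exception. Of 18 measured axonal partners of myelin 8 were lower and 1 was higher, with a median of -0.44. Kcnab2, a subunit of juxtaparanodal potassium channels, differed by -1.47, the paranodal gene Cntnap1 by -1.10 and the sodium channel gene Scn2a by -1.05. Cntnap1 had 9.36 and 9.05 in replicate 1 and 10.41 and 10.18 in replicate 2, without overlap. The higher member was Nfasc, which has a glial as well as an axonal form that a gene-level value does not separate.

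Other glial markers were measured beside these genes. Of 25 astrocyte markers 10 were higher in replicate 1 and 1, the gap junction gene Gjb6 (-2.48), was lower, with a median of 0.40. That median was 0.155 in controls and 0.688 in FGF9 arrays, and with all 8 arrays in the fit 4 were higher. Slc4a4, a bicarbonate transporter, differed by 1.22, whereas Gfap had 12.90 and 12.14 against 12.99 and 11.24 (0.40, adjusted p = 0.303), so that its replicates overlapped. Of 26 microglia and macrophage markers 12 were higher and none lower, with a median of 0.56, and 3 were called with all 8 arrays in the fit. The median was 0.826 in controls and 0.291 in FGF9 arrays. Lyz2, lysozyme, differed by 1.34 and Ptprc, the leukocyte antigen CD45, by 1.20.

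Schwann cells, the myelinating glia of peripheral nerve, share some genes with oligodendrocytes. Of 17 measured Schwann cell markers 7 were higher and none lower, with a median of 0.57. Cdh19, a cadherin of Schwann cell precursors, had 8.79 and 8.35 against 6.32 and 6.16 (2.33 ± 0.14, adjusted p = 0.000943), and Pmp2, a fatty acid binding protein of peripheral myelin, differed by 1.86. Prx, the periaxin gene of peripheral myelin, had 5.93 and 5.75 against 5.53 and 5.35 (adjusted p = 0.0801), near the lower quartile of each array, and this list also holds Mbp. The part of these cell types in the difference of the myelin genes was not tested.

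The largest difference of all pointed the other way. Tspan8, a tetraspanin, had 5.52 and 5.54 in replicate 1 and 10.98 and 10.53 in replicate 2, a difference of -5.23 ± 0.16 (adjusted p = 0.000156) or 37.4-fold. Its replicate 1 values lay near the lower quartile of those arrays (5.51 and 5.52), so the size of the fold is uncertain. Slc13a4, a sulfate transporter, had 7.09 and 6.14 against 11.31 and 10.54 (-4.31 ± 0.13, adjusted p = 0.000156). Ptgds had 9.40 and 9.14 against 13.54 and 13.25 (-4.13 ± 0.12). In each of these genes the FGF9 and control arrays of a replicate lay within 1 log2 unit and the replicates did not overlap.

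Other transporters and barrier genes were among the 15 largest negative differences: the organic anion transporter gene Slc22a8 (-4.26), the amino acid transporter gene Slc6a20a (-3.62), the sugar transporter gene Slc2a12 (-3.16) and the potassium channel gene Kcnj13 (-2.96). Igfbp6, a binding protein of insulin-like growth factors, differed by -4.23 ± 0.19 and the retinol dehydrogenase gene Dhrs9 by -3.12 ± 0.49. Ccl7, a chemokine (-3.38 ± 0.51), and Mmp13, a collagenase (-3.11 ± 0.53), varied more with treatment: Mmp13 had 5.18 and 5.55 in replicate 1 and 7.01 and 9.93 in replicate 2. Those 2 genes were not called with all 8 arrays in the fit (adjusted p = 0.0587 and 0.0501). Slc22a8 had 5.12 and 5.03 in replicate 1, below the lower quartiles of those arrays (5.51 and 5.52), and Mmp13 lay near them. The sizes of the folds of Slc22a8 and Mmp13 are therefore uncertain.

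The leptomeninges are the thin membranes around brain and spinal cord whose cells carry transport and barrier genes. A list of 30 measured leptomeningeal and arachnoid barrier genes was drawn up after these values were seen and is given as a description, without a test. In it, 24 were called lower and none higher, with a median of -2.12. The mean of the list was 6.95 and 6.81 in the control and FGF9 arrays of replicate 1 and 9.19 and 8.74 in those of replicate 2. Chosen after their values were seen, the cadherin gene Cdh1 had 5.22 and 5.16 against 8.82 and 7.07, and the retinoic acid synthesis gene Aldh1a2 had 9.41 and 9.32 against 10.62 and 11.42. The replicate 1 values of Cdh1 lay below the lower quartiles of those arrays, so the size of its difference is uncertain. Of 20 fibroblast and meningeal markers from the earlier list 11 were lower and 2 higher, with a median of -0.71. After subtraction of array medians 7 were lower, and with all 8 arrays in the fit 8 were. Their mean was 8.85 and 8.66 in replicate 1 and 9.68 and 9.37 in replicate 2. Fn1, fibronectin, differed by -1.28 and Ogn, a matrix proteoglycan, by -1.64. The part of these cells in the difference of the myelin and neuron genes was not tested.

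**Figure D4:**
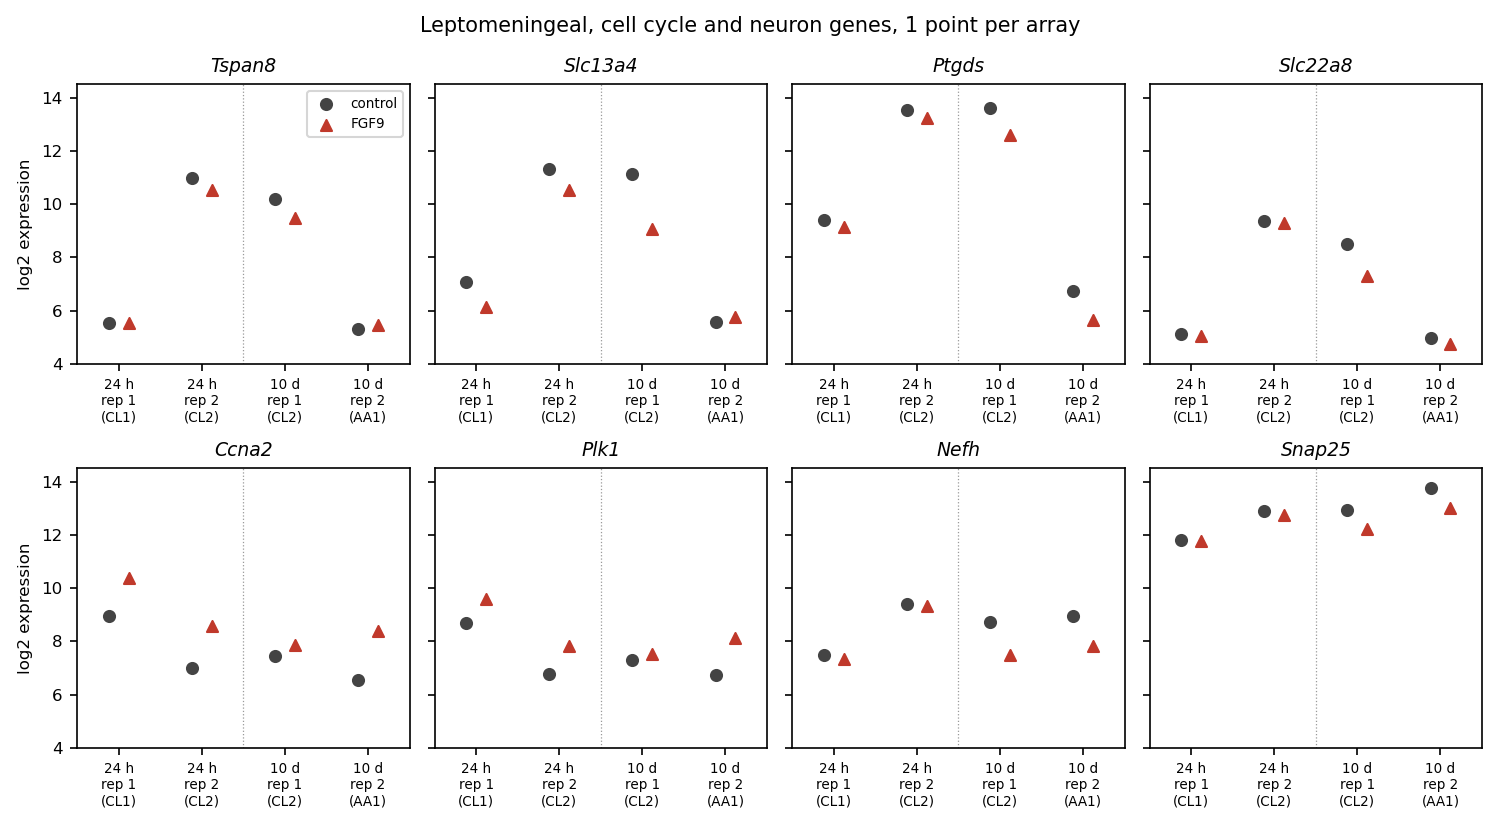
Log2 expression (y axis) of 4 leptomeningeal, 2 cell cycle and 2 neuron genes in each of the 8 arrays, grouped by time, replicate and array name prefix (x axis), with 1 point per array, grey circles for controls and red triangles for FGF9. The 4 leptomeningeal genes were high in the 4 arrays with the CL2 prefix, where Tspan8 ran from 9.50 to 10.98, and low in the other 4, where it ran from 5.30 to 5.54.

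The 4 arrays at 10 days, which the 24 h comparison does not use, gave the same measure a second time. Their replicate 1 carries the CL2 prefix and their replicate 2 the AA1 prefix, so replicate numbers need not mark the same thing at both times. Replicate 1 differed from replicate 2 at 10 days in 4536 genes (31.3%; limma), 2078 higher (14.3%) and 2458 lower (16.9%). Of the compact myelin genes 12 of 17 were higher and 1 was lower in replicate 1 at 10 days, with a median of 1.37. Of the 36 mature oligodendrocyte genes 14 were higher and 4 lower, with a median of 0.56. The 20 galactolipid and fatty acid genes did not keep their 24 h direction: 4 were higher and 8 lower at 10 days, with a median of -0.105. Mal had 10.85 and 10.57 in replicate 1 and 8.65 and 8.58 in replicate 2 at 10 days, a difference of 2.09 (adjusted p = 0.00129). Klk6 had 7.44 and 6.92 against 5.92 and 5.83 (1.31), and Mbp 12.01 and 12.53 against 10.92 and 10.93 (1.34).

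Of 975 genes higher in replicate 1 at 24 h, 189 (19.4%) were also higher in replicate 1 at 10 days, which is 9.10% of those higher there, and 161 (16.5%) were lower. Of the 1431 lower at 24 h, 502 (35.1%) were lower at 10 days as well and 329 (23.0%) were higher. Neuron markers were lower at both times, with 18 of 31 lower and 3 higher at 10 days and a median of -0.76. The leptomeningeal genes were called in opposite directions: 26 of 30 were higher in replicate 1 at 10 days and none lower, with a median of 2.47. That list was drawn up after its values were seen, so its 10-day counts are a description and no independent check. Tspan8 had 10.18 and 9.50 in replicate 1 and 5.30 and 5.47 in replicate 2 at 10 days, a difference of 4.45 (adjusted p = 0.000884), and Ptgds 13.60 and 12.61 against 6.73 and 5.63 (6.93). Fa2h was also called in opposite directions, at -0.94 (adjusted p = 0.0111) at 10 days, and the difference between the times was itself called (adjusted p = 0.00124).

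Sorted by prefix, 792 genes (5.46%) had all 4 CL2 arrays above the 4 other arrays. They included 327 of the 1431 genes lower in replicate 1 at 24 h, 44 of the 59 lower by at least 2 log2 units, and 24 of the 30 leptomeningeal genes. These shares are descriptions, since a gene lower in replicate 1 at 24 h already has its CL2 arrays higher at that time. The leptomeningeal list was also drawn up after its values were seen. Both replicate 2 arrays at 24 h lay below all 6 other arrays for 677 genes (4.67%), which included 196 of the 975 genes higher in replicate 1 and 3 of the 17 compact myelin genes. Of the 15 largest negative differences 12 had the first pattern, and of the 15 largest positive differences 4 had the second.

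Within the CL2 arrays the 10-day pair was compared with the 24 h pair, which shares arrays with both replicate comparisons, so the values are given side by side. At 10 days 323 genes were higher (2.23%) and 552 lower (3.81%); after subtraction of array medians these were 474 and 405. Of the 17 compact myelin genes 8 were higher at 10 days and 1, Cntn2, was lower, with a median of 0.85. Mal was 3.52 log2 units higher at 10 days, Mobp 2.48, Mog 1.81, Mbp 1.35 and Klk6 1.34. Of 31 neuron markers 14 were lower at 10 days and none higher. Of 22 cell cycle genes 1, Ccnb2 (0.95), was higher. Of 30 leptomeningeal genes 1 was higher and 5 were lower, with a median of -0.25.

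**Figure D5:**
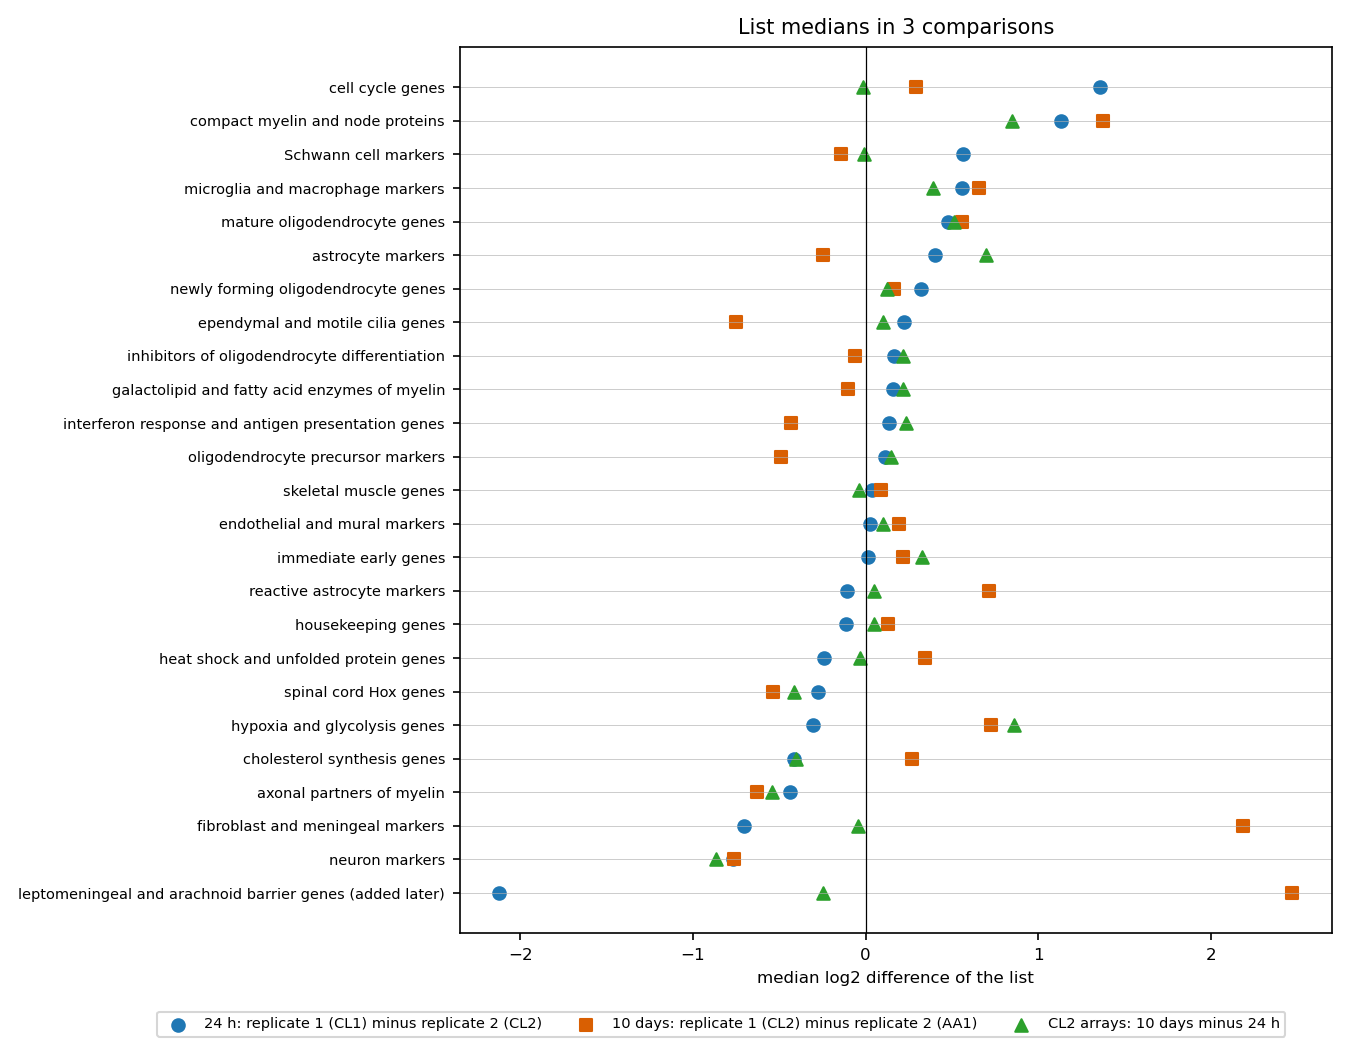
Median log2 difference (x axis) of each gene list (y axis) in the 24 h replicate comparison (blue circles), the 10-day replicate comparison (orange squares) and the change from 24 h to 10 days within the CL2 arrays (green triangles). Compact myelin genes had medians of 1.13, 1.37 and 0.85, neuron markers -0.77, -0.76 and -0.87, and leptomeningeal genes -2.12, 2.47 and -0.25; the comparisons share arrays in part.

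The replicate difference also bears on the FGF9 comparison at 24 h, since each treatment holds 1 array of either replicate. With the replicate number as a block 237 genes differed between FGF9 and control arrays (169 higher, 1.17%, and 68 lower, 0.469%; limma), and without the block none did, with 673 at an unadjusted p under 0.05. With the block in place none of the 17 compact myelin genes and none of the 36 mature oligodendrocyte genes was called; their median FGF9 differences were -0.45 and -0.18. Mal differed by -0.75 ± 0.22 (adjusted p = 0.159) and Mobp by -1.13 ± 0.24 (adjusted p = 0.0919) between FGF9 and control arrays. Fa2h was called, at -0.96 ± 0.12 (adjusted p = 0.0328), and fell by a like amount in both replicates, from 9.75 to 8.79 and from 7.30 to 6.34. Of 22 cell cycle genes 14 were higher with FGF9 and none lower, with a median of 0.99, beside the 1.35 by which the replicates differed. After quantile normalization 3 genes were called for FGF9, and after subtraction of array medians none.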

How the data were processed

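Total RNA was measured on 8 arrays, of which the 4 at 24 h are compared here. The authors deposited 1 log2 value per feature and array; the log2 scale is read from the values. The submitters' processing notes name Partek 6.5 and GCRMA. Of 29214 features, 15310 had 1 gene symbol, 323 several and 13581 none; for 527 genes with several features the one with the highest mean was kept, which left 14506 genes. limma 3.58.1 in R 4.3.3 (lmFit, eBayes) was fitted to the 4 arrays with replicate and treatment as factors, which leaves 1 residual degree of freedom and a prior of 5.07. Adjusted p-values are Benjamini-Hochberg over all genes, and "called" means under 0.05. The 10-day arrays and the CL2 arrays were fitted alike, and the fit was checked on simulated data. Alternatives were a fit to all 8 arrays, no treatment factor or block, quantile or median scaling, a filter on dim genes, the mean over features, a trended robust prior, a fold limit and leaving out each array. The members and lists were chosen with earlier results of these data known, and 1 list was added after its values were seen. Named genes are the 15 largest differences in each direction, up to 4 members of each list with the smallest p, members of the myelin and oligodendrocyte lists, and markers of cell types; a few others are named because a count turns on them.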

Additional observations from a re-analysis of the deposited data

Results flagged for a closer look

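Genes called in opposite directions between the replicates at 24 h and at 10 days numbered 490 in these arrays, and for 489 of them the difference between the times was itself called by limma in the fit to all 8 arrays. The genes were chosen as called in opposite directions on the same arrays, which nearly fixes that second count, so it adds no support. They comprised 161 genes higher in replicate 1 at 24 h and lower at 10 days, and 329 with the reverse order. Tspan8, Slc13a4 and Ptgds were among the 329, with differences of -5.23, -4.31 and -4.13 log2 units at 24 h and 4.45, 4.44 and 6.93 at 10 days. The replicate numbers carry different array name prefixes at the 2 times, and the part of the prefix in these differences was not tested.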

How the results depend on the processing

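The count of 2406 genes that differed between the replicates at 24 h was 1273 with all 8 arrays in the fit, 298 without the treatment factor and 697 with a limit of 1 log2 unit added. It lay between 22 and 36 when 1 of the 24 h arrays was left out, fits in which 1 pair remains at 24 h and the spread comes from the 10-day arrays. With quantile normalization, array medians subtracted, the dimmest genes dropped (the lowest 0.25), the mean over features or a trended robust prior it stayed within 1.5 times. The median of compact myelin genes lay between 0.995 and 1.28 in every setting. That of mature oligodendrocyte genes was 0.997 in control arrays and 0.741 in FGF9 arrays, against 0.47 in the fit to both. In that fit each gene's difference is the mean of its control and FGF9 differences, and the median of such means can lie outside both medians. That of galactolipid genes was 0.19 with quantile normalization, 0.27 with array medians subtracted and 0.17 in FGF9 arrays. The cause was not tested. Over the 15 largest differences in each direction and Mbp, 94 values lost their call in an alternative, 247 kept it and none changed sign. The 15 in each direction were chosen with the same sign in both treatments, which nearly fixes the sign, so that adds no support. Leaving out replicate 1 or replicate 2 of a treatment gave the same values, so those fits are counted 2 times. Other list members were not run through these alternatives; Opalin, Cryab, Apod and Aspa had opposite signs in control and FGF9 arrays. The replicate block raised the count of FGF9 genes at 24 h from 0 to 237; with the block it was 3 after quantile normalization and 0 after subtraction of array medians. Deviations of same-numbered arrays at 24 h had r = 0.757 across genes, in 1 pair per replicate, which does not show from the design that the numbers pair the arrays. Array number limits the precision: 2 arrays a side and 1 residual degree of freedom.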

Other observations

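Other gene groups are given beside the shares over all genes at 24 h, 6.72% higher and 9.86% lower in replicate 1. Of 23 hypoxia and glycolysis genes 6 were lower in replicate 1 and none higher, with a median of -0.31; 2 were lower with all 8 arrays in the fit and 4 after subtraction of array medians. Adm, a vasodilator peptide, differed by -1.67 and Pfkp, a phosphofructokinase, by -1.13. At 10 days 13 of these 23 were higher in replicate 1 and none lower, with a median of 0.72. Of 15 spinal cord Hox genes 3 were lower and none higher at 24 h, led by Hoxb9, which had 7.36 and 7.30 in replicate 1 and 8.69 and 8.64 in replicate 2. Of 22 genes of motile cilia 7 were higher and 1 lower, and 1 was called with all 8 arrays in the fit.

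Of 30 reactive astrocyte markers 1 was higher and 6 lower, led by Srgn, a secretory granule proteoglycan (-1.92), and Sphk1, a sphingosine kinase (-1.48). With all 8 arrays in the fit 3 were lower. The list's median was -0.11, and 0.005 after subtraction of array medians. The next 3 lists had few calls in either direction, and no group difference is read from them. Of 21 endothelial and mural markers 2 were higher and 3 lower, with a median of 0.03 and with 12 differences above 0 and 9 below. The 2 genes named here both had lower values in replicate 1. Abcb1a, an efflux pump of the blood-brain barrier, had 5.77 and 5.23 against 8.68 and 7.25, and Kdr, a receptor of vascular endothelial growth factor, 5.72 and 5.94 against 9.01 and 7.48. The immediate early list had 3 higher and 3 lower of 23, with Ier3 lowest at -2.65. The interferon list had 2 higher and 2 lower of 27. The heat shock list had 3 lower of 17, none of which was called after subtraction of array medians. Of 20 skeletal muscle genes none was called, and of 21 housekeeping genes 1, Hprt1 (-0.53, limma adjusted p = 0.0469), was lower. Sry, the one sex-linked gene measured, had 5.66 to 5.81 on the 24 h arrays.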
